A study of Mus musculus with 47 samples.

Results

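The basal cells and the luminal progenitor cells of the mouse mammary gland were compared within the same animals. The comparison rests on 12 RNA-seq libraries of the 47 in the study, which are the 6 libraries of the fraction labelled mammary stem cells (MSC) and the 6 of the fraction labelled luminal progenitor (LP) from the same 6 mice, numbered 305, 306, 308, 322, 323 and 324. These were chosen by the mouse numbers, because the deposited values of the other 10 MSC libraries and of the 15 libraries of mature luminal cells had been adjusted apart from them and cannot be set beside LP in level. All 6 mice were ovariectomized females of the inbred strain FVB. Over 14 days, mouse 308 and mouse 324 received estradiol with progesterone (EP) and the antagonist RU486 (mifepristone). Mouse 323 received EP with the antagonist TPA (telapristone acetate), mice 306 and 322 received EP alone, and mouse 305 had the sham treatment. The labels state neither doses nor age, nor whether cells of several animals were pooled beyond the 1 mouse number of each library, and the sham and TPA treatments are 1 mouse each. Cells were sorted by flow cytometry from the mammary tissue of each animal, and the labels name no gate, so what a gate would have removed is unknown. Libraries were made from 1 to 2 ng of RNA by full-length amplification of polyadenylated transcripts, and each is a bulk sample, in which fewer cells of a type and less RNA per cell cannot be told apart.

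The mammary ducts are a bilayer. The outer, basal layer consists of contractile myoepithelial cells, which hold keratin filaments of the basal type, a smooth muscle apparatus that squeezes milk out under oxytocin, and integrins that anchor them to the basement membrane. Cells that regenerate a gland on transplantation are recovered from this layer, which is why basal fractions are often called stem cell fractions although most of their cells are myoepithelial. The inner, luminal layer holds hormone-sensing cells with estrogen and progesterone receptors and progenitor cells, mostly without those receptors, that give rise to milk-secreting alveoli under progesterone, prolactin and the transcription factor Elf5. Hormone-sensing cells pass the hormonal signal to their neighbours through secreted factors such as RANKL, Wnt4 and amphiregulin.

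Each value is on the scale of FPKM, fragments counted for a gene and scaled to its length and to the depth of the library. Identical lowest values of many genes point to a shift and rescaling gene by gene, within sets of libraries, before deposit. How many reads stand behind each value is not known. The 12 libraries belong to 1 such set. Because of the shift, a gene's lowest value in the set is not its level and can lie well above 0, so levels were not compared between genes and a library at the lowest value is not said to lack the transcript. Totals of the values were 217977 to 295865 in MSC and 297710 to 358375 in LP. Genes with a value above 1 numbered 9397 to 11119 in MSC and 10527 to 11175 in LP. In MSC of mouse 323, 8191 genes lay above their lowest value in the set, against 16539 to 18114 in the other MSC libraries and 14765 to 15292 in LP.

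Some MSC libraries stood apart by markers of cells outside the epithelium, and this touches many results below. In the order of mice 305, 306, 308, 322, 323 and 324, the summed level above the lowest value over 20 endothelial genes was 2049, 2183, 2588, 79.3, 129 and 238 in MSC, against 269, 101, 185, 22.6, 16.1 and 6.02 in LP. MSC of mice 305, 306 and 308 thus stood far above the other libraries, and LP of the same 3 mice stood above LP of the other 3. The defining endothelial adhesion molecule Pecam1 was at 251, 224, 289, 34.4, 33.5 and 56.5 in MSC, against 49.5, 36, 41.2, 30, 31.2 and 29.8 in LP. Over 10 adipocyte genes the sums were 3139, 8703, 1091, 93.9, 96.2 and 177 in MSC, against 10.3, 16.4, 7.26, 1.33, 0.727 and 1.69 in LP, and they were highest in the same 3 MSC libraries. The adipocyte hormone Adipoq was at 71.2, 171, 7.12, 3.47, 3.28 and 3.28 in MSC and at 3.28 to 3.41 in LP. Sums over 6 red blood cell genes were 121, 290.4, 39.7, 6.46, 1.69 and 0.0181 in MSC, against 1.43 to 7.70 in LP. Fibroblast sums over 14 genes were 291, 305, 173, 196, 61 and 49.4 in MSC, against 17.4, 138, 39.7, 125, 27 and 49.8 in LP. Pericyte sums over 10 genes were 16.8 to 192 in MSC and 23.4 to 119 in LP. Anpep of that list, a peptidase gene that other cells share, was at 6.62 to 18.9 in MSC and 22 to 105 in LP. Immune sums over 16 genes were highest in MSC of mice 305 and 308, at 265 and 279.6, against 10.3 to 137 in LP, and the pan-leukocyte gene Ptprc was below 1 in all 12 libraries. For Schwann cells and nerve the sum was 161 in MSC of mouse 305 and 7.01 to 39.7 in the other MSC libraries, against 23.4 to 65 in LP. Skeletal muscle sums stayed between 1.86 and 9.12. By two-sided exact permutation of the 2 fractions within pairs, the endothelial and adipocyte sums differed in 6 of 6 pairs, with the smallest p that 6 pairs allow, 0.03125. The part of these cells in the differences between fractions was not tested, and results are given for all 6 pairs and, where the call of a named gene ends or begins there, for the pairs of mice 322, 323 and 324 alone. Of the reported genes, 22 calls ended in those 3 pairs and 21 in the pairs of mice 305, 306 and 308. The latter are not given gene by gene, so a call that ends with 3 pairs does not by itself set a gene apart.

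**Figure D1:**
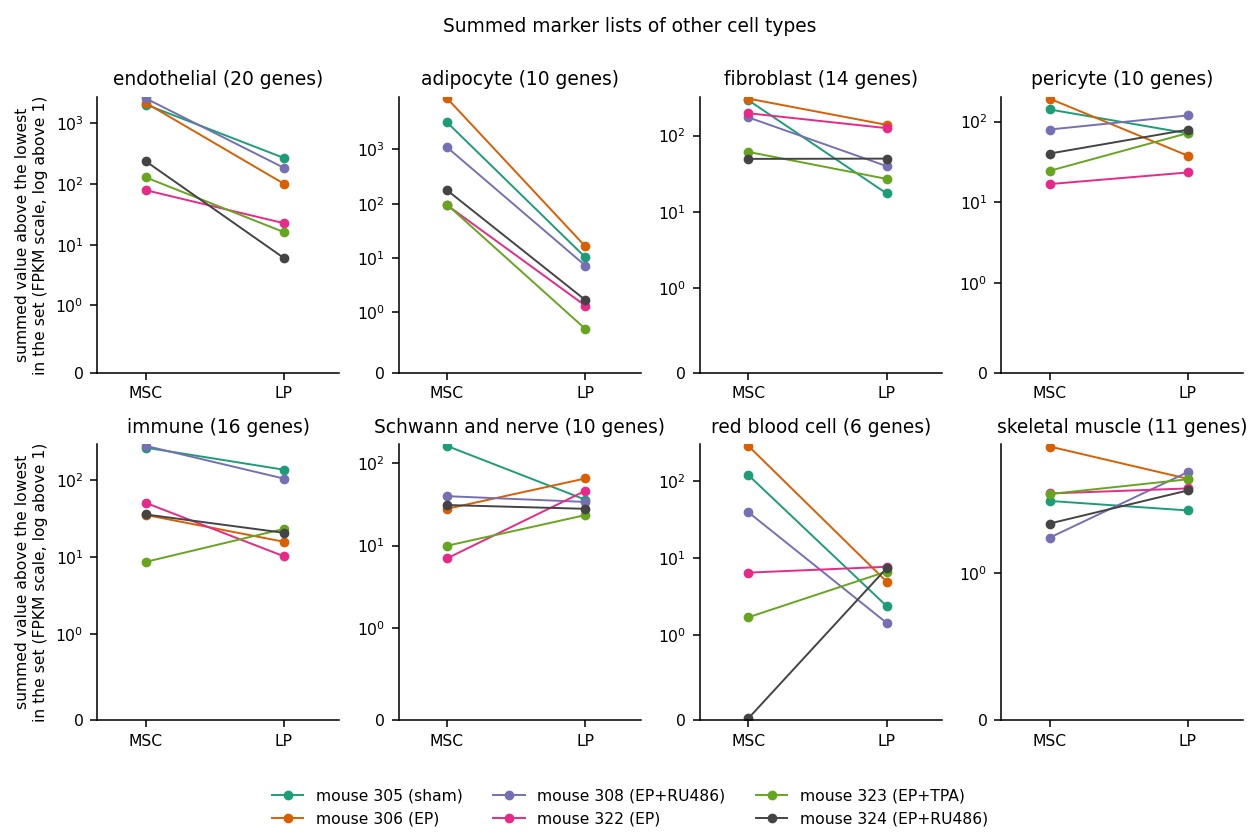
Summed deposited values above the lowest value in the set (FPKM scale, logarithmic above 1) for 8 marker lists, with MSC left and LP right and a line for each mouse. The endothelial and adipocyte sums of MSC from mice 305, 306 and 308 lie above all other libraries, at 2049 to 2588 and 1091 to 8703.

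The defining markers of the basal layer and of luminal progenitors went with the labels in every pair. The basal keratin gene Krt14 had values of 1189, 198, 694, 1416, 1767 and 1273 in MSC, against 75.9, 97.5, 77.8, 107, 77.3 and 76.8 in LP. All MSC values lay above all LP values, and the lowest MSC value, in mouse 306, stood well below the next. Folds were taken from a paired fit over all genes with limma (moderated linear models with the mouse as a block, on log2 of the value plus 1 after rescaling of libraries). The adjusted p is by Benjamini and Hochberg's method over 11760 genes. Krt14 was higher in MSC (log2 fold 3.67, SE 0.45, adjusted p 0.000897). LP of mice 305, 308, 323 and 324 sat at or near the gene's lowest value in the set, 75.9, so that the fold is taken against that level. The myosin heavy chain of smooth muscle, Myh11, ran from 28.6 to 142 in MSC (median 114), against 7.93 to 9.55 in LP (median 8.21) (log2 fold 3.45, SE 0.32, adjusted p 0.000263). Luminal keratin Krt18 ran from 323 to 482 in MSC (median 355), against 1274 to 2400.5 in LP (median 2139) (log2 fold -1.83, SE 0.23, adjusted p 0.000855). Elf5, the regulator of alveolar progenitors, stood at 2.36, 2.40, 2.47, 2.43, 3.09 and 2.40 in MSC, at or near its lowest value in the set, and at 24.5, 16.1, 29.7, 14.9, 26.8 and 28.7 in LP (log2 fold -2.53, SE 0.19, adjusted p 9.99e-05). None of these 4 markers overlapped between the fractions, and neither did 29.9% of all genes tested.

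**Figure D2:**
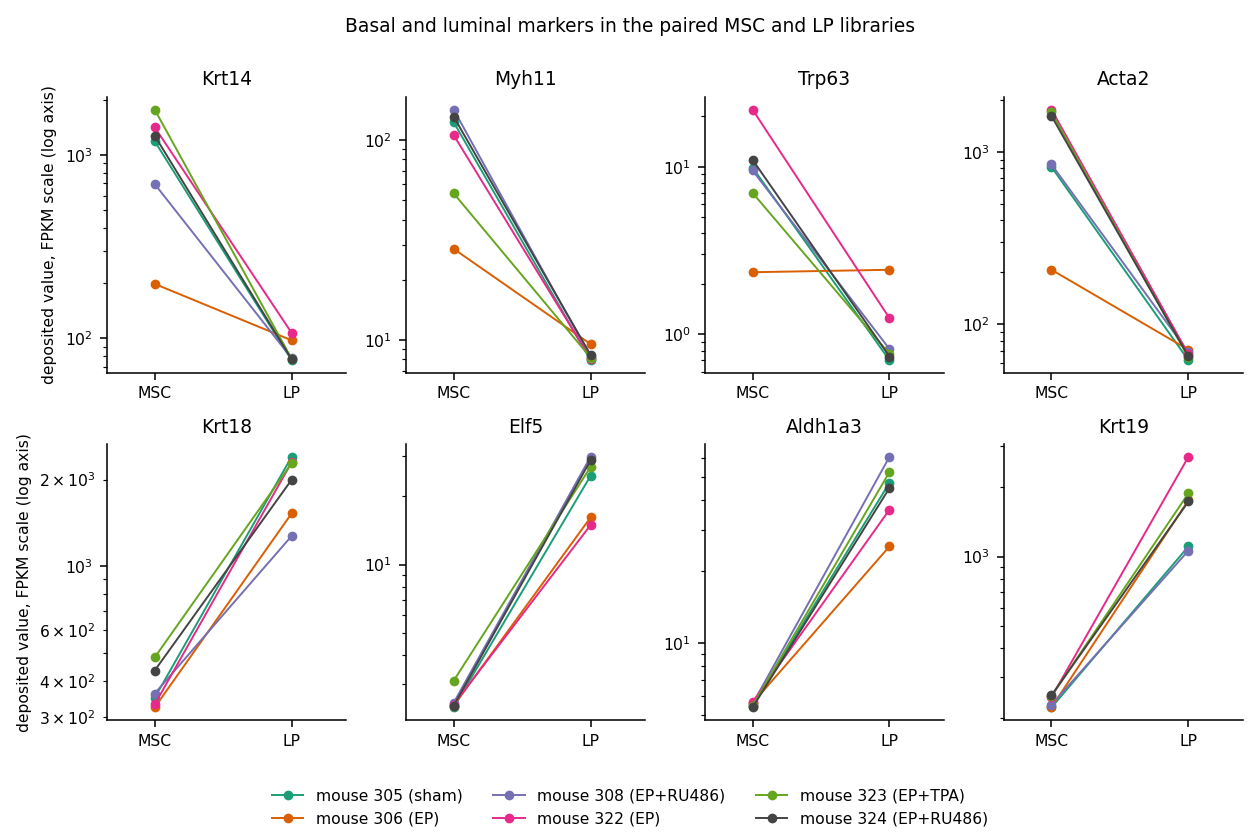
Deposited values (FPKM scale, logarithmic axis) of 4 basal markers (Krt14, Myh11, Trp63, Acta2) and 4 luminal markers (Krt18, Elf5, Aldh1a3, Krt19), MSC left and LP right, with a line for each mouse. In 5 of 6 mice all 4 basal markers are several-fold higher in MSC, and in mouse 306 the MSC values are the lowest of the 6, with Trp63 at 2.35 in MSC and 2.43 in LP.

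MSC of mouse 306 stood apart from the other MSC libraries by its low basal values. The keratin Krt5 was at 197, 25.8, 135, 190.0, 282 and 192 in MSC, against 10.3 to 11.3 in LP. The basal master regulator Trp63 was at 9.88, 2.35, 9.50, 21.9, 6.99 and 11 in MSC, against 0.702, 2.43, 0.819, 1.25, 0.765 and 0.739 in LP. In mouse 306 alone the deposited Trp63 value was no higher in MSC than in LP. Summed over 24 smooth muscle genes, the level above the lowest value was 3395, 793, 3203, 6538, 5845 and 6475 in MSC, against 109.7 to 320.0 in LP. The 20 luminal keratin and junction genes summed to 228, 11.7, 284, 379, 495 and 524 in MSC, against 6208, 6085, 3539.7, 9083, 6385 and 5750.4 in LP, so the luminal sum of that library was the lowest of the 12 as well. The same library held the highest adipocyte and red blood cell sums, and the part of those cells in its low basal values was not tested.

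Across the transcriptome, 4686 of 11760 genes (39.8%) differed between the fractions at an adjusted p under 0.05. Of these, 2190 (18.6% of those tested) were higher in MSC and 2496 (21.2%) were lower, and 3518 genes (29.9%) had MSC and LP values that did not overlap. The median log2 fold of all tested genes was -0.07. The split depends on the rescaling of libraries. On the values as deposited the median fell to -0.47, with 1430 genes higher and 5538 lower, and 1399 of the 2190 higher calls and all 2496 lower calls were also made there. Log2 folds above 2 were measured for 241 of the higher genes and folds below -2 for 103 of the lower ones. The size of a fold depends on the gene's lowest value in the set, so these counts and the ranks of folds below hold for this scale only. With the lowest value subtracted before the logarithm, the log2 fold was 7.84 for Krt14 and -5.57 for Krt18, against 3.67 and -1.83. In the pairs of mice 322, 323 and 324 alone, 1156 genes were higher and 1324 lower. Every gene called with 6 pairs that could be tested there (1841 higher and 2377 lower) had the same direction. The pairs of mice 322, 323 and 324 are among the 6 that gave the calls. The shared direction is therefore largely built in and is not an independent check of the calls.

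The 10 largest increases among genes with a mean of 10 or more comprised Acta2, Myl9, Krt5, Krt17, Cnn1 and Tagln, described below, and 4 others. Il17b, a cytokine of the interleukin 17 family, ran from 8.41 to 207 in MSC (median 50.8), against 2.80 to 4.02 in LP (median 2.91) (log2 fold 3.95, SE 0.58, adjusted p 0.00191). Tgfb1i1, an adaptor of focal adhesions also called Hic-5, ran from 10.3 to 32.5 in MSC (median 27), against 1.13 to 1.82 in LP (median 1.55) (log2 fold 3.71, SE 0.23, adjusted p 6.93e-05). For neither gene did any LP value reach an MSC value. The secreted Wnt antagonist Wif1 was at 74.6, 20.1, 58, 178, 37.4 and 71.4 in MSC, against 4.33 to 5.26 in LP (log2 fold 3.69, SE 0.35, adjusted p 0.000283). Creatine kinase B, encoded by Ckb, which buffers ATP in contractile cells, ran from 48.4 to 170.5 in MSC (median 105), against 7.76 to 8.94 in LP (median 8.67) (log2 fold 3.69, SE 0.28, adjusted p 0.000116). All 4 kept their calls in the pairs of mice 322, 323 and 324, with log2 folds of 5.30, 4.11, 4.19 and 4.23.

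Among the 10 largest decreases, the water channel gene Aqp5 was listed at 0 in all 6 MSC libraries and at 199.8, 47.6, 75.1, 37.5, 76.1 and 84.4 in LP (adjusted p 5.47e-05), and no fold is given against a group at 0. Vill, a villin-like protein that binds actin, was at 0.453 to 0.902 in MSC (median 0.666), against 19.3 to 28.7 in LP (median 20.9) (log2 fold -3.46, SE 0.12, adjusted p 1.90e-05). Fcgbp, a mucin-like secreted protein, was at 28.3 to 35.9 in MSC (median 29.1), against 436, 178, 559, 122, 655 and 385 in LP (log2 fold -3.20, SE 0.33, adjusted p 0.000433). Its LP values were lowest in the 2 mice on EP alone, 178 in mouse 306 and 122 in mouse 322. The matricellular gene Ccn5 showed 11.2 to 20.1 in MSC (median 11.8), against 59.2 to 329 in LP (median 175) (log2 fold -3.12, SE 0.35, adjusted p 0.000615). The predicted gene Gm266 was also among the 10 (log2 fold -2.99, SE 0.28, adjusted p 0.000271), with the milk and luminal genes Csn1s1, Muc15, Csn3, Cldn4 and Ehf.

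**Figure D3:**
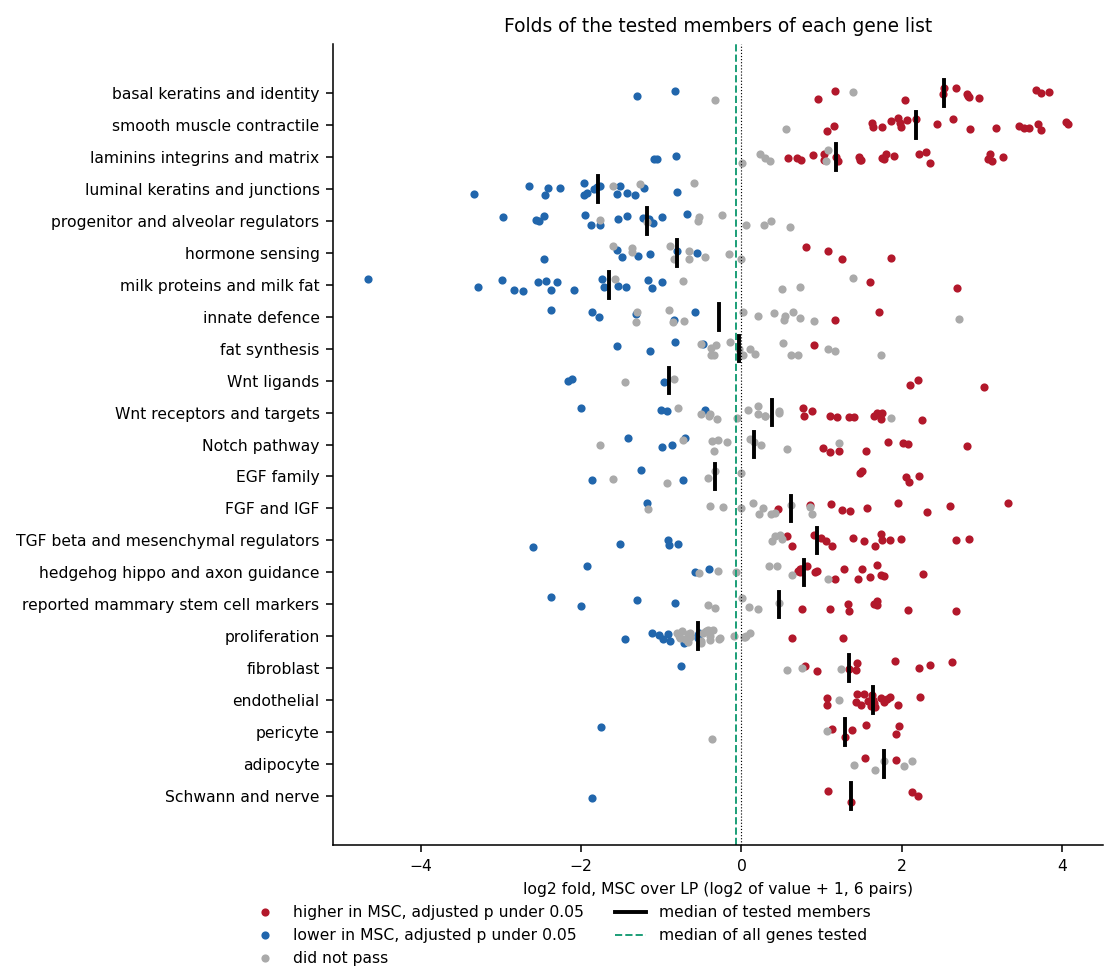
Log2 folds of MSC over LP (6 pairs, log2 of value plus 1) for the tested members of 23 gene lists, in red where higher and in blue where lower at an adjusted p under 0.05, with a black bar at each list's median and a dashed line at the median of all genes tested (-0.07). The basal and smooth muscle lists lie to the right, with medians of 2.52 and 2.18, and the luminal and milk lists to the left, with medians of -1.79 and -1.65.

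Genes of basal identity had 13 of 17 tested members higher and 2 lower, with a median log2 fold of 2.52 (11 higher and 3 lower on the deposited scale). Over all genes tested 18.6% were higher and 21.2% lower, and on the deposited scale 12.2% and 47.1%. The counts of each list below are to be read beside these shares. Krt5 and Krt17, partners and companions of Krt14 in basal filaments, were higher too. For Krt5 the estimate was log2 fold 3.84, SE 0.45, adjusted p 0.000713. For Krt17 it was log2 fold 3.74, SE 0.47, adjusted p 0.000985. The stress-inducible keratin Krt16 ran from 3.30 to 30.9 in MSC (median 16.9), against 1.10 to 2.40 in LP (median 1.38) (log2 fold 2.82, SE 0.38, adjusted p 0.0012). Trp63 encodes p63, which establishes basal epithelium, and it was higher as well (log2 fold 2.52, SE 0.39, adjusted p 0.00222), although its values overlapped through mouse 306. Vim, the filament protein of mesenchymal cells that myoepithelium also holds, was at 228, 252, 202, 86.2, 116 and 162 in MSC, against 27.1 to 31.5 in LP (median 28.7) (log2 fold 2.96, SE 0.21, adjusted p 8.64e-05). Vim was highest in MSC of mice 305, 306 and 308, the libraries with the highest endothelial and adipocyte sums. In the pairs of mice 322, 323 and 324 its log2 fold was 2.66 (adjusted p 0.00184). MSC of those mice also held higher endothelial sums than their LP, 79.3, 129 and 238 against 22.6, 16.1 and 6.02. The part of endothelial cells in Vim was not tested.

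Snai2, the zinc finger repressor Slug that holds basal cells in a stem-like state, ran from 8.86 to 53.7 in MSC (median 16.9), against 2.20 to 2.40 in LP (median 2.25) (log2 fold 2.67, SE 0.29, adjusted p 0.000553), with its highest MSC value in mouse 322 on EP. The Notch ligand Jag2 ran from 11.1 to 29.2 in MSC (median 19.4), against 2.14 to 3.0 in LP (median 2.28) (log2 fold 2.81, SE 0.16, adjusted p 5.47e-05). Against the direction of the list, Sox9 ran from 9.0 to 39.6 in MSC (median 21.7), against 38.3 to 135 in LP (median 84.1) (log2 fold -1.30, SE 0.17, adjusted p 0.00106). Sox10 ran from 6.61 to 19.3 in MSC (median 13.4), against 21.8 to 40.5 in LP (median 34.4) (log2 fold -0.83, SE 0.15, adjusted p 0.00484). Both factors are known from luminal progenitors. Sox9 was lower in MSC in 6 of 6 pairs, and Sox10 did not pass in the pairs of mice 322, 323 and 324 (log2 fold -0.75, adjusted p 0.0685). Krt15 did not pass (log2 fold 1.39, adjusted p 0.0808), with 13.8, 9.57, 18.5, 396, 15.1 and 32.2 in MSC, against 8.76 to 22.9 in LP. It passed without the pair of mouse 306 (log2 fold 1.79, adjusted p 0.0317). The receptor gene Egfr did not pass either (log2 fold -0.34, adjusted p 0.166), and on the deposited scale it did, as a lower value in MSC (log2 fold -0.78, adjusted p 0.00663).

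The contractile apparatus was higher in MSC almost throughout. The list had 22 of 23 tested members higher and 0 lower, with a median log2 fold of 2.18. The fractions did not overlap for 16 of the 23, beside 29.9% of all genes tested. In the pairs of mice 322, 323 and 324, 23 of 23 tested were higher and 0 lower, where 10.8% of all 10713 genes tested were higher and 12.4% lower. Smooth muscle actin, Acta2, was at 816, 207, 843, 1753, 1689 and 1610.3 in MSC, against 61.9, 71.2, 68.8, 67.1, 64.3 and 65.1 in LP (log2 fold 4.07, SE 0.45, adjusted p 0.000565). MSC of mice 322, 323 and 324 held higher Acta2 values than MSC of mice 305 and 308, and mouse 306 held the lowest. The second smooth muscle actin, Actg2, which differs from Acta2 by few residues so that reads may be shared, ran from 17.9 to 268 in MSC (median 89.8), against 6.34 to 7.16 in LP (median 6.82) (log2 fold 3.59, SE 0.49, adjusted p 0.0013). Tagln, which encodes the actin-binding protein SM22, ran from 89.4 to 619 in MSC (median 349), against 26.1 to 33.3 in LP (median 27) (log2 fold 3.70, SE 0.40, adjusted p 0.000551). Cnn1, which encodes calponin, ran from 48.4 to 393 in MSC (median 250.2), against 16.9 to 18.1 in LP (median 17.9) (log2 fold 3.73, SE 0.41, adjusted p 0.000553).

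The regulatory myosin light chain gene Myl9 had a log2 fold of 4.04 (SE 0.36, adjusted p 0.00025), with 146 to 852 in MSC (median 595) and 33 to 38.7 in LP (median 35.6). Serum response factor, which drives contractile genes through the CArG box, was itself not called. Srf ran from 5.17 to 9.19 in MSC (median 6.90), against 4.80 to 11.4 in LP (median 5.92) (log2 fold 0.56, adjusted p 0.0584), and it passed without the pair of mouse 305 (log2 fold 0.74, adjusted p 0.0158) and in the pairs of mice 322, 323 and 324 (log2 fold 0.81, adjusted p 0.0418). Promoter windows of 300 bases, 250 before to 50 after the gene start, were available from RefSeq (GRCm38.p6) for 19 of the 24 genes, in 23 windows. A CArG box, whose letters read the same on both strands, was found in 3 of these 23 windows, those of Myl9, Myl6 and Srf, and in 535 of all 32851 windows (1.63%). The Myl9 window is shown, on the plus strand at chr2:156775214-156775513, with the CArG box in capitals.
Myl9: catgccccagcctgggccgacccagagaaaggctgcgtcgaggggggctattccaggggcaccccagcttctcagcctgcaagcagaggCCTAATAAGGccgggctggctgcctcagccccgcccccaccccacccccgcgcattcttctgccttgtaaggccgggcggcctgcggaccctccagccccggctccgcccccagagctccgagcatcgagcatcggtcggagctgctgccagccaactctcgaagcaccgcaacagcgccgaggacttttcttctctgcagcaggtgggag

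The basement membrane and its receptors had 22 of 31 tested members higher and 3 lower, with a median of 1.18 (16 higher and 3 lower on the deposited scale). The type IV collagen chains, which form the meshwork of the basement membrane, were higher. Col4a2 ran from 35.1 to 121 in MSC (median 87.6), against 6.36 to 10.4 in LP (median 8.12) (log2 fold 3.27, SE 0.22, adjusted p 7.73e-05). Col4a1 ran from 44.8 to 214 in MSC (median 166), against 13.4 to 20.6 in LP (median 16.3) (log2 fold 3.13, SE 0.26, adjusted p 0.000176). Their MSC values were lowest in mice 323 and 324. Sparc, a collagen-binding matrix protein, ran from 349 to 985 in MSC (median 565), against 73.6 to 90 in LP (median 79.9) (log2 fold 3.10, SE 0.18, adjusted p 5.47e-05). These 3 genes are made by endothelium as well, and with the pairs of mice 322, 323 and 324 alone their log2 folds were 2.88, 2.66 and 2.95.

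Anchors of the epithelium to the basement membrane were also higher. Col17a1, the transmembrane collagen of hemidesmosomes, was at 36.7, 5.10, 43.7, 21.2, 21.3 and 30.4 in MSC, against 2.17 to 2.41 in LP (log2 fold 3.07, SE 0.36, adjusted p 0.000715). Col7a1, the anchoring fibril collagen, ran from 1.10 to 27.2 in MSC (median 6.70), against 0.529 to 0.914 in LP (median 0.572) (log2 fold 2.34, SE 0.45, adjusted p 0.00552). Lamb3, a chain of the epithelial laminin of hemidesmosomes, did not pass (log2 fold 1.08, adjusted p 0.264). It was at 52.3, 0.753, 49.5, 56.1, 41.6 and 37.9 in MSC, against 11.6 to 25.2 in LP (median 18.6). It passed without the pair of mouse 306 (log2 fold 1.98, adjusted p 0.000325) and in the pairs of mice 322, 323 and 324 (log2 fold 2.23, adjusted p 0.00127). The collagen receptor chain Itga2 was lower, at 0.857 to 3.07 in MSC (median 1.34), against 3.32 to 12 in LP (median 6.46) (log2 fold -1.09, SE 0.18, adjusted p 0.0032). The luminal integrin Itgb6 was lower too (log2 fold -0.81, SE 0.20, adjusted p 0.0148), and did not pass in the pairs of mice 322, 323 and 324 (log2 fold -0.58, adjusted p 0.106).

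Luminal genes went the other way. Of 20 luminal keratin and junction genes, 0 were higher in MSC and 17 were lower, with a median of -1.79. The fractions of 17 did not overlap, beside 29.9% of all genes tested. Keratin 19 ran from 222 to 250.4 in MSC (median 237), against 1061 to 2703 in LP (median 1742) (log2 fold -2.26, SE 0.18, adjusted p 0.000126), and its MSC values were near the lowest in the set, 222. Krt8, the filament partner of Krt18, ran from 251 to 504 in MSC (median 399), against 906 to 2219.6 in LP (median 1684) (log2 fold -1.51, SE 0.25, adjusted p 0.0028). Epcam, the adhesion molecule often used to sort luminal cells, was at 170.4, 132, 164, 253, 168 and 192 in MSC, against 599, 641, 632, 678, 629 and 608 in LP (log2 fold -1.32, SE 0.18, adjusted p 0.00139). The fraction with the higher Epcam value was LP in 6 of 6 pairs.

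The 4 largest decreases of the list were in genes of tight junctions. Cldn4 was at 6.52, 5.88, 4.40, 8.82, 11.2 and 7.09 in MSC, against 492, 164, 28.4, 230.5, 66 and 57.2 in LP (log2 fold -3.34, SE 0.54, adjusted p 0.00282). Cldn3 ran from 39.7 to 53.7 in MSC (median 40.5), against 217 to 388 in LP (median 259) (log2 fold -2.44, SE 0.15, adjusted p 6.93e-05). Cldn7 ran from 26.7 to 33.6 in MSC (median 27.2), against 128 to 310.0 in LP (median 185) (log2 fold -2.42, SE 0.15, adjusted p 6.09e-05). The junction scaffold Tjp3 ran from 3.67 to 4.24 in MSC (median 3.80), against 30.4 to 44.3 in LP (median 32.4) (log2 fold -2.65, SE 0.13, adjusted p 5.34e-05). Cd24a, a surface marker commonly used to define these fractions, was lower in MSC in 5 of 6 pairs after rescaling and did not pass (log2 fold -0.59, adjusted p 0.103), and passed on the deposited scale (log2 fold -1.10, adjusted p 0.00742). Its deposited values of 72.2, 38.9, 68.6, 75.9, 52.9 and 82.2 in MSC all lay below those in LP, 98.4 to 229 in LP (median 110.2).

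Regulators of the progenitor and alveolar state had 0 of 23 tested members higher and 14 lower, with a median of -1.18 (0 higher and 19 lower on the deposited scale). The epithelial ETS factor Ehf ran from 6.62 to 7.92 in MSC (median 6.75), against 52.8 to 96.5 in LP (median 76.1) (log2 fold -2.97, SE 0.15, adjusted p 5.47e-05). Aldh1a3, the aldehyde dehydrogenase that marks progenitors, ran from 5.36 to 5.64 in MSC (median 5.49), against 25.5 to 60.7 in LP (median 46.1) (log2 fold -2.56, SE 0.20, adjusted p 0.000115). Kit, the receptor used to isolate progenitors, was at 17.5, 12, 21.3, 9.38, 9.26 and 10.6 in MSC, against 73.3, 69.4, 61.7, 35.3, 39.1 and 38.8 in LP (log2 fold -1.43, SE 0.15, adjusted p 0.000483). In both fractions Kit was higher in mice 305, 306 and 308 than in the other 3.

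Grhl1, a grainyhead factor of epithelial barriers, ran from 3.05 to 4.02 in MSC (median 3.36), against 16.7 to 39.1 in LP (median 20) (log2 fold -1.95, SE 0.17, adjusted p 0.000174). The prolactin receptor gene Prlr, which feeds the alveolar programme, ran from 13.5 to 16 in MSC (median 13.8), against 33.6 to 314 in LP (median 95.4) (log2 fold -2.46, SE 0.41, adjusted p 0.00323). Cebpb, Cebpd and Id2, which act in alveolar differentiation, did not pass (adjusted p 0.144, 0.362 and 0.191), with Cebpb at 163 to 495 in MSC (median 349.8), against 130.3 to 616 in LP (median 361).

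Genes of milk proteins and milk fat had 2 of 24 tested members higher and 17 lower, with a median of -1.65. The list's summed level was higher in MSC in 2 of 6 pairs (two-sided exact permutation p 0.625). Those were the pairs of mice 305 and 308, with sums of 8615 and 16931 in MSC, against 8405 and 9185 in LP. Most of these 2 MSC sums came from Glycam1, so the p of the sum does not speak for the rest of the list. Glycam1, a mucin-like protein of milk and of the vessels of lymph nodes, was at 8348, 1329, 16499, 1509.9, 1446 and 6099 in MSC, against 567, 567, 931, 546, 788 and 722 in LP (log2 fold 2.68, SE 0.48, adjusted p 0.00414). Its MSC values were highest in mice 305, 308 and 324, and its LP values lay near the lowest in the set, 546. The fatty acid transporter Cd36, known from adipocytes, endothelium and milk fat globules, was at 248, 715, 200.2, 50.8, 46.9 and 55.8 in MSC, against 44.2 to 46 in LP (log2 fold 1.60, SE 0.53, adjusted p 0.0435). It did not pass in the pairs of mice 322, 323 and 324 (log2 fold 0.25, adjusted p 0.348) or without mouse 305, 306, 308 or 324 (adjusted p 0.0542 to 0.11).

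The caseins were lower in MSC. Csn3, which encodes kappa-casein, was at 80.7, 91.6, 91.8, 73.8, 171 and 82.5 in MSC, against 2360.1, 175, 3203, 202, 2551 and 2222 in LP (log2 fold -2.98, SE 0.65, adjusted p 0.0094). Its LP values were 175 and 202 in the 2 mice on EP alone, and 2222 to 3203 in the 4 others. Alpha-casein Csn1s1 was listed at 0 in 5 MSC libraries and at 7.0 in mouse 323, against 148, 108, 17.2, 65.2, 84.8 and 3.68 in LP (adjusted p 0.00185). Beta-casein, Csn2, was at 1.35, 1.27, 1.27, 1.67, 3.71 and 1.27 in MSC, against 91.8, 99.1, 6.36, 38.1, 10.9 and 1.56 in LP (log2 fold -2.73, SE 0.72, adjusted p 0.0195). It did not pass in the pairs of mice 322, 323 and 324 (log2 fold -1.46, adjusted p 0.169).

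Muc15 and Wfdc18, a milk fat globule mucin and a secreted protease inhibitor, were lower. Muc15 ran from 9.09 to 10.1 in MSC (median 9.29), against 92.3 to 162 in LP (median 112) (log2 fold -3.29, SE 0.14, adjusted p 4.52e-05). Wfdc18 ran from 161 to 181 in MSC (median 165), against 729 to 3782 in LP (median 975) (log2 fold -2.83, SE 0.33, adjusted p 0.000666). LP values of Wfdc18 were highest in the 2 mice on EP, at 3671 and 3782, where Csn3 was lowest. Promoter windows were found for 20 genes of the list, 24 windows in all. The letters TTCNNNGAA, the core to which STAT factors bind and which reads the same on both strands, stood in 6 of the 24 windows and in 2726 of all 32851 (8.30%). The 6 were those of Csn1s1, Csn2, Csn1s2a, Glycam1, Pigr and Aldoc. Of these, Csn1s1 and Csn2, which were lower in MSC, and Glycam1, which was higher, are shown with the match in capitals, from chr5:87665958-87666257 (plus strand), chr5:87699376-87699675 (minus strand) and chr15:103565032-103565331 (minus strand).
Csn1s1: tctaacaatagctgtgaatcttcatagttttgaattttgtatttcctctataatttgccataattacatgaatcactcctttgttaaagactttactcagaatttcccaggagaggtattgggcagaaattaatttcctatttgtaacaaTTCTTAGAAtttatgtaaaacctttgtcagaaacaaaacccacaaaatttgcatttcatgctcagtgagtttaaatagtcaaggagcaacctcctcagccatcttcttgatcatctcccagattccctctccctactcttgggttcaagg
Csn2: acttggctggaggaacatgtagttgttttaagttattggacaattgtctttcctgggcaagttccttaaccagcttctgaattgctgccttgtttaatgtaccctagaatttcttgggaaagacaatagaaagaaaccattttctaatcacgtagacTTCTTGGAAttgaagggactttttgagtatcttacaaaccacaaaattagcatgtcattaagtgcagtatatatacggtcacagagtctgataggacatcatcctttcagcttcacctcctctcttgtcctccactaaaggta
Glycam1: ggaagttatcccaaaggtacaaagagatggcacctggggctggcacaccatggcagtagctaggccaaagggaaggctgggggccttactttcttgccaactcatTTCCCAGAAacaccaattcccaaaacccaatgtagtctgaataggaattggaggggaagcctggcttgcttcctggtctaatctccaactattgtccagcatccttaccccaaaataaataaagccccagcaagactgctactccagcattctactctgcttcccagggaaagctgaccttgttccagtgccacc

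Calls of secreted Wnt ligands went in both directions. Of 22 genes in the file 8 were tested, and 3 were higher and 3 lower in MSC, on either scale. Over all genes 18.6% were higher and 21.2% lower. Wnt10a, a ligand of ectodermal appendages, was at 10.4, 1.51, 8.40, 21.4, 13.7 and 12.9 in MSC, against 0.457 to 0.593 in LP (log2 fold 3.02, SE 0.41, adjusted p 0.00125). Wnt6 ran from 1.92 to 12.7 in MSC (median 3.78), against 0.231 to 0.638 in LP (median 0.384) (log2 fold 2.20, SE 0.39, adjusted p 0.00416). Wnt11 ran from 2.22 to 10.5 in MSC (median 8.56), against 0.946 to 2.14 in LP (median 1.55) (log2 fold 2.10, SE 0.32, adjusted p 0.00206). For these 3 the fractions did not overlap, and their calls held in the pairs of mice 322, 323 and 324.

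Of the other tested ligands, Wnt5b, Wnt7b and Wnt5a were lower in MSC. Wnt5b ran from 13.9 to 19 in MSC (median 16), against 68.7 to 147 in LP (median 125) (log2 fold -2.16, SE 0.23, adjusted p 0.000473). Wnt7b ran from 0.0823 to 4.0 in MSC (median 1.16), against 6.54 to 16.7 in LP (median 13.8) (log2 fold -2.11, SE 0.23, adjusted p 0.000565), neither with any overlap. Wnt5a, which opposes canonical signalling in many tissues, ran from 0.709 to 3.68 in MSC (median 2.05), against 2.98 to 9.72 in LP (median 7.29) (log2 fold -0.97, SE 0.22, adjusted p 0.012). Wnt4 and the enhancer Rspo1, 2 mediators of progesterone, did not pass over the 6 pairs (adjusted p 0.272 and 0.108). Both differed between treatments in LP, as described below.

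Wnt receptors, feedback inhibitors and targets had 12 of 30 tested members higher and 4 lower, with a median of 0.38 (10 higher and 9 lower on the deposited scale, where the median was 0.04). The negative feedback genes Nkd1 and Nkd2 were higher. Nkd1 ran from 3.04 to 10.6 in MSC (median 4.95), against 0.467 to 0.859 in LP (median 0.543) (log2 fold 2.26, SE 0.22, adjusted p 0.000353). Nkd2 ran from 1.50 to 12.5 in MSC (median 3.28), against 0.502 to 2.13 in LP (median 0.649) (log2 fold 1.74, SE 0.31, adjusted p 0.00408). The secreted antagonist Sfrp1 ran from 3.27 to 21.5 in MSC (median 9.42), against 2.02 to 4.87 in LP (median 2.94) (log2 fold 1.75, SE 0.20, adjusted p 0.000658). Tcf7l1, a repressor of Wnt targets, ran from 9.80 to 23.4 in MSC (median 19), against 5.09 to 9.43 in LP (median 6.33) (log2 fold 1.69, SE 0.19, adjusted p 0.000615). Its relative Tcf7l2 went the other way, from 6.12 to 11 in MSC (median 7.80), against 11.6 to 32.3 in LP (median 26.2) (log2 fold -0.93, SE 0.20, adjusted p 0.00809). The R-spondin receptor Lgr5 ran from 0.904 to 9.0 in MSC (median 2.74), against 0.254 to 1.87 in LP (median 0.705) (log2 fold 1.35, SE 0.21, adjusted p 0.0025). The common transducer Ctnnb1, which encodes beta-catenin, did not pass (log2 fold 0.08, adjusted p 0.721), with 34.5 to 123 in MSC and 76.3 to 173 in LP.

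In the Notch pathway 4 ligands were higher in MSC, receptors Notch1 and Notch2 were lower, and targets went both ways, Nrarp higher and Hes1 lower. The list had 8 of 23 tested members higher and 4 lower, with a median of 0.16 (7 higher and 9 lower on the deposited scale, median -0.13). Over all genes 18.6% were higher and 21.2% lower, so the lower calls do not exceed the share of all genes. Besides Jag2 and Dll4, the ligands Dll1 and Jag1 were higher in 6 of 6 pairs. Dll1 ran from 14.5 to 51.3 in MSC (median 23.2), against 5.21 to 12.4 in LP (median 7.68) (log2 fold 2.08, SE 0.12, adjusted p 5.47e-05). Jag1 ran from 4.94 to 11.6 in MSC (median 8.64), against 1.78 to 5.34 in LP (median 3.03) (log2 fold 1.55, SE 0.18, adjusted p 0.000702). Hes1, the repressor induced by Notch, ran from 27.9 to 47.4 in MSC (median 31.4), against 99 to 186 in LP (median 133) (log2 fold -1.42, SE 0.21, adjusted p 0.00181). Nrarp, an inhibitor of Notch signalling that Notch induces, ran from 1.99 to 18.7 in MSC (median 5.02), against 2.69 to 4.01 in LP (median 3.03) (log2 fold 1.10, SE 0.29, adjusted p 0.0196). It was higher in 6 of 6 pairs after rescaling, and did not pass in the pairs of mice 322, 323 and 324 (log2 fold 0.43, adjusted p 0.183), without mouse 305 or 308 (adjusted p 0.0582 and 0.0548), or on the deposited scale (log2 fold 0.71, adjusted p 0.0692). The glycosyltransferase Lfng (log2 fold 1.02, adjusted p 0.0153) and Numbl, a relative of the Notch inhibitor Numb (log2 fold 1.21, adjusted p 0.00041), were higher, and Hes6 was lower (log2 fold -0.86, adjusted p 0.0136). Neither Lfng (log2 fold 0.77, adjusted p 0.18) nor Hes6 (log2 fold -0.60, adjusted p 0.162) passed in the pairs of mice 322, 323 and 324, and Lfng did not pass on the deposited scale (log2 fold 0.66, adjusted p 0.0518). The receptors Notch1 and Notch2 were lower in MSC (log2 fold -1.0, adjusted p 0.023 and log2 fold -0.70, adjusted p 0.0059). Notch1 did not pass without mouse 308, 322, 323 or 324 (adjusted p 0.0512 to 0.0657), and Notch2 did not pass in the pairs of mice 322, 323 and 324 (log2 fold -0.50, adjusted p 0.102).

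Several Notch genes moved with the endothelial markers. Dll4, the ligand of sprouting vessels, was at 47.5, 42.7, 49.1, 5.76, 7.07 and 9.07 in MSC, against 6.97, 5.38, 6.25, 4.54, 5.38 and 5.47 in LP (log2 fold 2.02, SE 0.37, adjusted p 0.00472). It was high in MSC of mice 305, 306 and 308, and its log2 fold was 1.0 (adjusted p 0.0166) in the other 3 pairs. The glycosyltransferase Mfng was at 36.6, 21.6, 29.5, 3.0, 3.79 and 4.93 in MSC, against 2.45 to 3.39 in LP (log2 fold 1.83, SE 0.45, adjusted p 0.0149). It did not pass in those 3 pairs (log2 fold 0.59, adjusted p 0.0889). The target Hey1 did not pass over 6 pairs (log2 fold -1.76, adjusted p 0.0653), with 130.0, 8.31, 113, 7.61, 71 and 89.4 in LP, where the 2 mice on EP alone were lowest. On the deposited scale it passed (log2 fold -2.23, adjusted p 0.0139), and it passed without mouse 306 (log2 fold -2.41, adjusted p 0.00775) or mouse 322 (log2 fold -2.13, adjusted p 0.0478).

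Of the EGF family, 4 ligands were higher in MSC and 2 receptors and 1 ligand were lower. The list had 5 of 13 tested members higher and 3 lower (5 higher and 5 lower on the deposited scale), beside 18.6% of all genes higher and 21.2% lower. The neuregulins Nrg1 and Nrg2, which activate Erbb3 and Erbb4, were higher. Nrg1 ran from 1.63 to 21.1 in MSC (median 11.8), against 1.03 to 3.25 in LP (median 2.04) (log2 fold 2.09, SE 0.33, adjusted p 0.00267). Nrg2 ran from 0.772 to 14.4 in MSC (median 9.20), against 0.349 to 1.65 in LP (median 0.836) (log2 fold 2.22, SE 0.49, adjusted p 0.0101). Hbegf and Tgfa, ligands of Egfr, were higher as well. Hbegf ran from 52.6 to 92.8 in MSC (median 71.5), against 14.5 to 40.5 in LP (median 24) (log2 fold 2.05, SE 0.25, adjusted p 0.000846). Tgfa ran from 3.70 to 15.1 in MSC (median 8.40), against 1.79 to 6.28 in LP (median 4.12) (log2 fold 1.48, SE 0.28, adjusted p 0.0057). On the other side, the receptor Erbb3 ran from 5.36 to 7.30 in MSC (median 5.96), against 21 to 65.7 in LP (median 31.9) (log2 fold -1.86, SE 0.21, adjusted p 0.000575). Its partner Erbb2 ran from 4.97 to 9.14 in MSC (median 5.77), against 17.7 to 36 in LP (median 22.1) (log2 fold -1.26, SE 0.15, adjusted p 0.000648). Btc, another ligand of Egfr, was lower in MSC (log2 fold -0.73, SE 0.15, adjusted p 0.00734), and did not pass in the pairs of mice 322, 323 and 324 (log2 fold -0.62, adjusted p 0.0881).

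Binding proteins of insulin-like growth factors, which hold these factors outside the cell, had the 4 largest increases of the FGF and IGF list, which had 10 of 23 tested members higher and 1 lower (8 higher and 4 lower on the deposited scale). Igfbp2 was at 23.6, 20, 103, 371, 120.0 and 207 in MSC, against 8.83 to 11.3 in LP (log2 fold 3.32, SE 0.58, adjusted p 0.00377), and was highest in mice 322 and 324. Igfbp3 ran from 14 to 127 in MSC (median 45.7), against 7.71 to 9.76 in LP (median 8.62) (log2 fold 2.60, SE 0.33, adjusted p 0.00102). Igfbp6 ran from 2.36 to 19.3 in MSC (median 7.25), against 0.978 to 4.51 in LP (median 1.22) (log2 fold 1.95, SE 0.29, adjusted p 0.00184). Igfbp7, a vessel-associated member, was at 1479, 1297, 1590.0, 323, 324 and 445 in MSC, against 162 to 254 in LP (log2 fold 2.31, SE 0.33, adjusted p 0.00166). It too was highest in mice 305, 306 and 308, and its log2 fold was 1.45 in the other 3 pairs (adjusted p 0.0047). The insulin receptor substrate Irs1 was the lower gene (log2 fold -1.18, SE 0.18, adjusted p 0.00206).

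The list of TGF beta signalling and mesenchymal regulators had 15 of 24 tested members higher and 5 lower, with a median of 0.95. Fst, the secreted activin trap follistatin, was at 25.5, 11.8, 23.2, 225, 26.5 and 46.8 in MSC, against 4.65 to 5.63 in LP (log2 fold 2.84, SE 0.47, adjusted p 0.00305), with the highest value in mouse 322. Bmp7 ran from 1.79 to 29.7 in MSC (median 6.91), against 1.08 to 1.79 in LP (median 1.31) (log2 fold 1.99, SE 0.37, adjusted p 0.0052). The co-receptor Tgfbr3 ran from 10.1 to 40 in MSC (median 19), against 3.88 to 20.7 in LP (median 6.69) (log2 fold 1.74, SE 0.19, adjusted p 0.000512). In the other direction, the ligand Tgfb3 was at 21.9, 17, 19.9, 17.9, 19 and 17.3 in MSC, against 164, 95.8, 377, 62.4, 209 and 282 in LP (log2 fold -2.59, SE 0.33, adjusted p 0.001). The activin subunit Inhbb ran from 3.41 to 11.9 in MSC (median 6.41), against 10.7 to 51.8 in LP (median 35.6) (log2 fold -1.51, SE 0.28, adjusted p 0.00467). MSC values of Tgfb3 spanned 17 to 21.9, while LP values were lower in the 2 mice on EP than in the other 4. Tgfb1, the founding ligand, did not pass (log2 fold 0.51, adjusted p 0.107); it passed without mouse 322 (log2 fold 0.72, adjusted p 0.0225).

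Markers that earlier work has used for mammary stem cells were called in both directions. The list had 9 of 19 tested members higher and 4 lower, with a median of 0.46 (8 higher and 6 lower on the deposited scale, median 0.06). Over all genes 18.6% were higher and 21.2% lower, so the lower calls of the list were near the share of all genes. Higher in MSC were Snai2, Dll1, Tcf7l1 and Lgr5, given above, and Aldh1a1, a retinaldehyde dehydrogenase, at 0.587 to 2.95 in MSC (median 2.10), against 0.187 to 0.386 in LP (median 0.249) (log2 fold 1.33, SE 0.20, adjusted p 0.00188). Procr, the protein C receptor, was at 134, 129, 279, 40.9, 33.1 and 43.4 in MSC, against 185, 38.8, 114, 31.5, 27.5 and 30.7 in LP (log2 fold 1.11, SE 0.31, adjusted p 0.0241). Its values were high in MSC of mice 305, 306 and 308 and in LP of mice 305 and 308, and it did not pass on the deposited scale (log2 fold 0.61, adjusted p 0.0716) or without mouse 308, 323 or 324 (adjusted p 0.0545 to 0.0699).

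Nrp1, Cdh5 and Inpp5d were also higher, and endothelial or blood cells are known to express all 3. Nrp1 was at 41.4, 71.3, 26.3, 6.46, 5.23 and 6.96 in MSC, against 4.80 to 5.12 in LP (log2 fold 1.68, SE 0.49, adjusted p 0.0288). Neither it (log2 fold 0.37, adjusted p 0.199) nor Cdh5 (log2 fold 0.56, adjusted p 0.112) passed in the pairs of mice 322, 323 and 324. Nrp1 did not pass without mouse 305 or 308 (adjusted p 0.0798 and 0.0792), nor Cdh5 without mouse 308 (adjusted p 0.0517). The tetraspanin Tspan8 was lower, at 23.1, 6.35, 8.16, 5.60, 6.90 and 6.87 in MSC, against 92.1, 18, 145, 21.7, 106 and 143 in LP (log2 fold -2.37, SE 0.41, adjusted p 0.00356). Lgr6 was lower too (log2 fold -2.01, SE 0.59, adjusted p 0.0296), but it did not pass without mouse 305, 306, 308, 323 or 324 (adjusted p 0.0591 to 0.0827) or in the pairs of mice 322, 323 and 324 (log2 fold -1.14, adjusted p 0.343). Axin2, a Wnt target, was near 0 throughout, at 0.103 to 1.78 in MSC and 0.0563 to 1.54 in LP (log2 fold 0.20, adjusted p 0.316). Bmi1 and Fzd7 did not pass (adjusted p 0.0504 and 0.334). Bmi1 passed on the deposited scale (log2 fold -0.77, adjusted p 0.00531), and Fzd7 passed without mouse 306 (log2 fold 0.86, adjusted p 0.0172) and in the pairs of mice 322, 323 and 324 (log2 fold 1.08, adjusted p 0.0283).

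Hormone-sensing genes had 4 of 21 tested members higher and 7 lower, with a median of -0.80 (3 higher and 8 lower on the deposited scale). Over all genes 18.6% were higher and 21.2% lower, so the higher calls of the list were near the share of all genes. Esr1, the estrogen receptor, ran from 0.404 to 2.81 in MSC (median 1.50), against 2.62 to 11.4 in LP (median 6.35) (log2 fold -1.13, SE 0.24, adjusted p 0.00772). Gata3, a luminal fate factor, ran from 10.2 to 16.9 in MSC (median 14.9), against 51.4 to 68 in LP (median 65.8) (log2 fold -1.55, SE 0.19, adjusted p 0.0008). The pioneer factor Foxa1 was at 2.02 to 2.44 in MSC (median 2.12) and at 14.4, 38.2, 3.0, 26.5, 2.74 and 2.78 in LP (log2 fold -1.49, SE 0.47, adjusted p 0.0379). It did not pass without mouse 305, 306 or 322 (adjusted p 0.0764 to 0.0974) or in the pairs of mice 322, 323 and 324 (log2 fold -1.0, adjusted p 0.245). The progesterone receptor, Pgr, did not pass (log2 fold -0.65, adjusted p 0.193), with 0.319, 0.257, 0.453, 0.823, 0.603 and 0.528 in MSC and 1.85, 7.33, 0.453, 5.03, 0.342 and 0.660 in LP, where the 2 mice on EP alone were highest.

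Among the genes of that list that were higher in MSC, Rcan1, Ptgs1 and Ly6a do not act in steroid hormone sensing as such. Rcan1, an inhibitor of calcineurin, was at 278, 242, 306, 73.4, 55.9 and 81.8 in MSC, against 43 to 62.2 in LP (log2 fold 1.86, SE 0.28, adjusted p 0.00203). Ptgs1, a cyclooxygenase, and Ly6a, the surface protein Sca-1 found on endothelium and luminal cells, had log2 folds of 1.08 and 1.26, and neither passed in the pairs of mice 322, 323 and 324 (log2 fold 0.15, adjusted p 0.594 and log2 fold 0.44, adjusted p 0.588). Ptgs1 did not pass without mouse 305, 306, 308 or 324 (adjusted p 0.0585 to 0.112), nor Ly6a without mouse 305, 306, 308, 323 or 324 (adjusted p 0.0851 to 0.127). Ly6a did not pass on the deposited scale either (log2 fold 0.75, adjusted p 0.168), and neither gene passed without the mouse as a block (adjusted p 0.0833 for Ptgs1 and 0.0715 for Ly6a). All 3 were highest in MSC of mice 305, 306 and 308.

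Most markers of cell division did not pass. The list had 2 of 37 tested members higher and 10 lower, with a median of -0.54, beside 18.6% of all genes higher and 21.2% lower. On the deposited scale it had 1 higher and 29 lower, where 47.1% of all genes were lower. The replicative helicase genes Mcm6 and Mcm2 were lower. Mcm6 ran from 4.23 to 9.32 in MSC (median 5.68), against 9.22 to 80.9 in LP (median 20.2) (log2 fold -1.45, SE 0.28, adjusted p 0.00595). Mcm2 ran from 2.70 to 5.15 in MSC (median 4.31), against 4.94 to 34.2 in LP (median 10.4) (log2 fold -1.03, SE 0.25, adjusted p 0.015). LP of mice 306 and 322, both on EP alone, held the highest values of Mcm6, 80.9 and 62.8, among LP values of 9.22, 80.9, 21.9, 62.8, 15.1 and 18.4. The summed list was 89, 149, 63.6, 195, 10.1 and 61.8 in MSC, against 46.5, 873, 156, 580.3, 105 and 140.2 in LP (lower in MSC in 5 of 6 pairs, two-sided exact permutation p 0.0625). The G1 cyclin Ccne1 was higher in MSC (log2 fold 1.27, SE 0.22, adjusted p 0.00382), and so was the replication clamp Pcna (log2 fold 0.63, SE 0.14, adjusted p 0.0105). Pcna did not pass on the deposited scale (log2 fold 0.12, adjusted p 0.566) or in the pairs of mice 322, 323 and 324 (log2 fold 0.58, adjusted p 0.096).

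Genes of other cell types gave their own calls. The endothelial list had 19 of 20 tested members higher and 0 lower, with a median of 1.64, and in the pairs of mice 322, 323 and 324 5 of 19 tested were higher and 0 lower, with a median of 0.51. These 3 pairs were set apart after their lower endothelial sums were seen, so the drop is largely built in. Pecam1 had log2 fold 1.62, SE 0.42, adjusted p 0.018 over 6 pairs, and log2 fold 0.51, adjusted p 0.168 in those 3. It did not pass without mouse 305 or 308 (adjusted p 0.0525 and 0.0525). The pericyte list had 6 of 9 tested members higher and 1 lower, and in the same 3 pairs 2 of 6 tested were higher and 2 lower. Rgs5, a regulator of G protein signalling in pericytes, was at 33.3, 87.6, 11.1, 7.50, 2.99 and 6.85 in MSC, against 2.70 to 5.74 in LP (log2 fold 1.92, SE 0.49, adjusted p 0.0169). The receptor Pdgfrb was at 18.1, 13.9, 6.20, 1.57, 1.96 and 2.24 in MSC, against 1.05 to 1.51 in LP (log2 fold 1.55, SE 0.39, adjusted p 0.0168). Both were higher in 6 of 6 pairs, and neither passed in the pairs of mice 322, 323 and 324 (log2 fold 0.79, adjusted p 0.0804 and log2 fold 0.55, adjusted p 0.0762). The member that was lower was Anpep (log2 fold -1.76, SE 0.20, adjusted p 0.000575).

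The fibroblast list had 9 of 13 tested members higher and 1 lower, and in the pairs of mice 322, 323 and 324 6 of 9 tested were higher and 0 lower. The collagens Col1a1, Col1a2 and Col3a1, abundant in fibroblasts, were higher in 6 of 6 pairs. Col1a1 had log2 fold 1.34, adjusted p 0.0171, and did not pass in those 3 pairs (log2 fold 0.43, adjusted p 0.211), without mouse 308 (adjusted p 0.0542), or on the deposited scale (log2 fold 0.94, adjusted p 0.0542). Col1a2 had log2 fold 1.44, adjusted p 0.0061, against log2 fold 0.72, adjusted p 0.0379 in those 3. Col3a1 had log2 fold 1.43, adjusted p 0.005, against log2 fold 0.82, adjusted p 0.0291 in those 3. Fbln1 and the collagen Col5a1 were also higher in 6 of 6 pairs, with log2 folds of 3.33 and 2.33 in those 3. Fbln1 ran from 1.43 to 19.1 in MSC (median 8.64), against 0.411 to 0.848 in LP (median 0.710) (log2 fold 2.62, SE 0.38, adjusted p 0.00177). Col5a1 ran from 3.38 to 7.98 in MSC (median 5.47), against 0.368 to 0.698 in LP (median 0.534) (log2 fold 2.35, SE 0.14, adjusted p 5.64e-05). The fibroblast receptor Pdgfra was lower in MSC (log2 fold -0.75, SE 0.22, adjusted p 0.0276), and did not pass without mouse 308, 323 or 324 (adjusted p 0.075 to 0.0815).

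**Figure D4:**
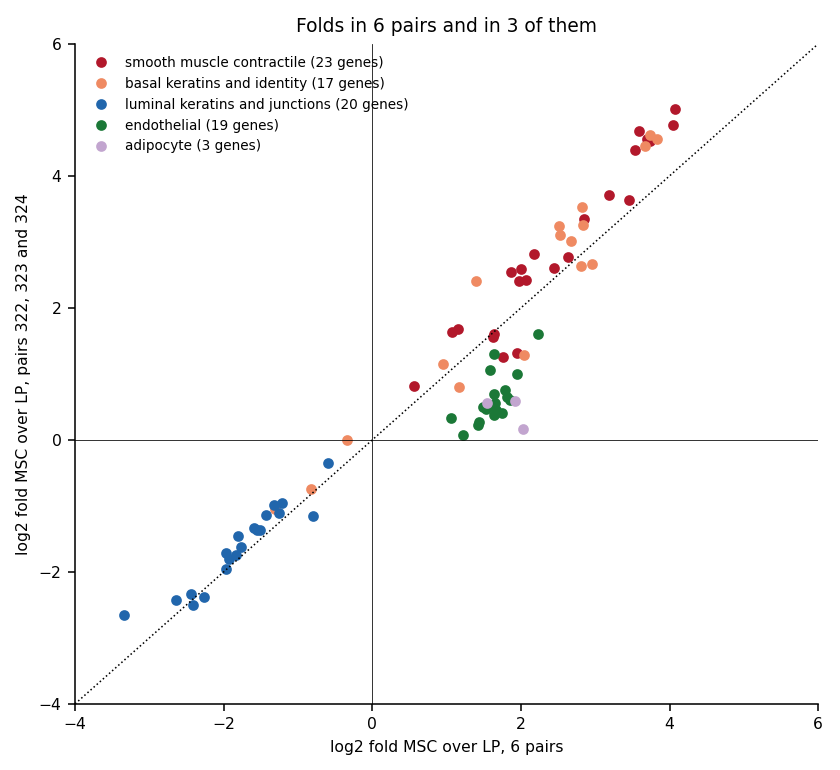
Log2 fold of MSC over LP from all 6 pairs (horizontal) and from the pairs of mice 322, 323 and 324 alone (vertical) for members of 5 lists that were tested in both, with the dotted line at equal folds. Above the line lie 19 of 23 smooth muscle, 13 of 17 basal and 17 of 20 luminal genes, and 0 of 19 endothelial and 0 of 3 adipocyte genes. The 3 pairs are part of the 6, so the 2 axes share libraries. They were set apart after the endothelial and adipocyte sums were seen, so the place of those genes below the line is largely built in.

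Most contractile and basal folds were more positive without the 3 pairs with high endothelial sums, which include mouse 306 with its low basal values. This held for 19 of 23 smooth muscle genes and 13 of 17 basal genes tested in both, and the basal gene Vim had a smaller fold there, 2.66, against 2.96 over 6 pairs. In the pairs of mice 322, 323 and 324, Acta2, Krt14 and Myl9 had log2 folds of 5.01, 4.45 and 4.77, against 4.07, 3.67 and 4.04 over 6 pairs, and luminal Krt18 and Elf5 had -1.74 and -2.39, against -1.83 and -2.53. Of the smooth muscle list 23 of 23 were higher there, and of the endothelial list 5 of 19, beside the 10.8% of all genes. Because the pairs were set apart after their endothelial sums were seen, the smaller endothelial folds and count are largely built in.

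The 6 pairs differed in treatment, so the difference between fractions was compared between the 3 pairs with an antagonist (mice 308, 323 and 324) and the 2 with EP alone (mice 306 and 322), with the pair of the sham mouse as a value only. The comparison asks whether blocking the progesterone receptor goes with another difference between the fractions, and was made with limma on the 6 differences. An adjusted p under 0.05 was reached by 196 of 11760 genes (1.67%). With antagonist, the difference of MSC minus LP was more positive for 130 of them and more negative for 66. The groups are small, and the count was 65 without mouse 324 and 443 without mouse 322. Mouse 306, 1 of the 2 EP mice, is also the pair with the low basal values, and without it the count was 153. Without mouse 306 or 322 the EP arm is 1 pair, which is then assumed to vary like the antagonist pairs.

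The 5 genes with the smallest p differed between treatments in LP. Tph1, the enzyme that starts serotonin synthesis, was at 3.28, 3.31, 3.28, 3.73, 3.29 and 3.39 in MSC, against 3.77, 107, 3.43, 118, 3.30 and 3.47 in LP, and it stood well above its lowest value in LP of the 2 EP mice. Its MSC minus LP difference on the log2 scale was -0.04 or nearer 0 with antagonist, against -4.25 and -4.22 with EP (a change of 4.22, SE 0.25, adjusted p 0.000675). Plac8, a cysteine-rich protein, was at 8.16 to 15.3 in MSC, against 8.80, 312, 7.91, 310.3, 8.33 and 8.29 in LP (a change of 4.17, SE 0.29, adjusted p 0.000675). The R-spondin Rspo1 was at 4.51 to 5.79 in MSC, against 6.11, 164, 4.79, 120.5, 8.46 and 4.93 in LP (a change of 3.92, SE 0.27, adjusted p 0.000675). The chemokine Cxcl15 was at 4.93 to 6.25 in MSC, against 6.40, 129.8, 5.21, 129, 5.18 and 5.20 in LP (a change of 3.86, SE 0.26, adjusted p 0.000675). Stc2, a secreted glycoprotein, was at 8.68 to 12.1 in MSC, against 43.6, 179, 11.2, 193, 10.4 and 10.8 in LP (a change of 3.85, SE 0.26, adjusted p 0.000675). For all 5, LP of the 2 EP mice held the highest values of the 12 libraries.

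Hormone-sensing genes were common among them. Of 21 tested, 12 changed, all with a more positive difference under antagonist, beside 130 of 11760 over all genes (1.11%). The EGF receptor ligand Areg was at 6.18, 6.18, 6.12, 22.2, 6.02 and 6.31 in MSC, against 12.4, 239.7, 6.32, 449, 6.74 and 7.13 in LP (a change of 4.13, SE 0.32, adjusted p 0.00113). Calca, which encodes calcitonin, was at 3.56 to 4.03 in MSC, against 3.71, 132, 3.67, 86.6, 3.62 and 3.56 in LP (a change of 4.05, SE 0.30, adjusted p 0.000893). Wnt4 was at 1.44 to 2.17 in MSC, against 5.33, 27.6, 1.44, 25.9, 1.76 and 1.49 in LP (a change of 3.53, SE 0.27, adjusted p 0.00105). Each stood high in LP of mice 306 and 322 and lower in LP of the antagonist mice.

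The estrogen target Greb1 was at 0.129, 0.109, 1.61, 0.888, 0.775 and 0.895 in MSC, against 0.109, 4.34, 0.105, 5.36, 0.120 and 0.110 in LP (a change of 2.73, SE 0.31, adjusted p 0.00453). Foxa1 (a change of 2.80, SE 0.29, adjusted p 0.00318) and Prlr (a change of 2.35, SE 0.30, adjusted p 0.00862) changed likewise. Prlr was at 142, 314, 48.6, 256, 33.6 and 38.2 in LP, so sham mouse 305 lay between the classes. Tnfsf11, which encodes RANKL, was at 2.17, 1.34, 1.77, 1.07, 0.886 and 1.20 in MSC, against 0.899, 24.9, 0.886, 10.3, 1.28 and 1.29 in LP (a change of 2.70, SE 0.38, adjusted p 0.0125). Neither Prlr nor Tnfsf11 passed without mouse 324 (adjusted p 0.066 and 0.0626). The change of Pgr itself was 2.10, adjusted p 0.0263, and it did not pass without mouse 323 or 324 (adjusted p 0.135 and 0.104).

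The opposite change was measured for genes that LP held less of under EP. Hey1, with 12.1, 16.3, 9.0, 5.68, 5.66 and 6.36 in MSC, differed by -3.25, -2.65 and -2.97 between MSC and LP with antagonist, against 1.46 and 0.11 with EP and -3.29 in the sham pair (a change of -3.74, SE 0.42, adjusted p 0.00448). Csn3 differed by -4.83, -3.03 and -4.03 with antagonist, against -0.30 and -0.89 with EP and -4.82 with sham (a change of -3.36, SE 0.50, adjusted p 0.0165). Lactoferrin, Ltf, an iron-binding defence protein, was at 126 to 128 in MSC, against 1275, 247, 951, 288, 1998 and 956 in LP (a change of -2.22, SE 0.38, adjusted p 0.0274). For these 3 the sham pair lay with the antagonist pairs. Csn3 did not pass without mouse 306 or 324 (adjusted p 0.0669 and 0.0773), nor Ltf without mouse 306 or 324 (adjusted p 0.107 and 0.0822).

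Slpi, a secreted inhibitor of leukocyte elastase, differed between treatments in both fractions. It was at 1275, 181, 1475, 310.0, 2834 and 2333 in MSC, against 92.7, 666, 93.2, 776, 94.9 and 90.1 in LP (a change of 6.05, SE 0.84, adjusted p 0.0125). In MSC it was lowest in the 2 EP mice, and in LP it was highest in them. Over the 6 pairs it did not pass (log2 fold 2.72, adjusted p 0.0602). It passed without mouse 306 (log2 fold 3.52, adjusted p 0.0162) or mouse 322 (log2 fold 3.41, adjusted p 0.0299), and without the mouse as a block (adjusted p 0.0196). Its change with antagonist did not pass without mouse 323 or 324 (adjusted p 0.0765 and 0.0948). Basal identity and smooth muscle genes gave no call in this comparison, with 0 of 17 and 0 of 23, beside 1.67% of all genes. At that share lists of this size hold few calls or none, so whether these genes change with antagonist cannot be told. Krt14 had a change of 1.71 (SE 1.18, adjusted p 0.665) and Acta2 of 1.43 (SE 1.26, adjusted p 0.748).

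**Figure D5:**
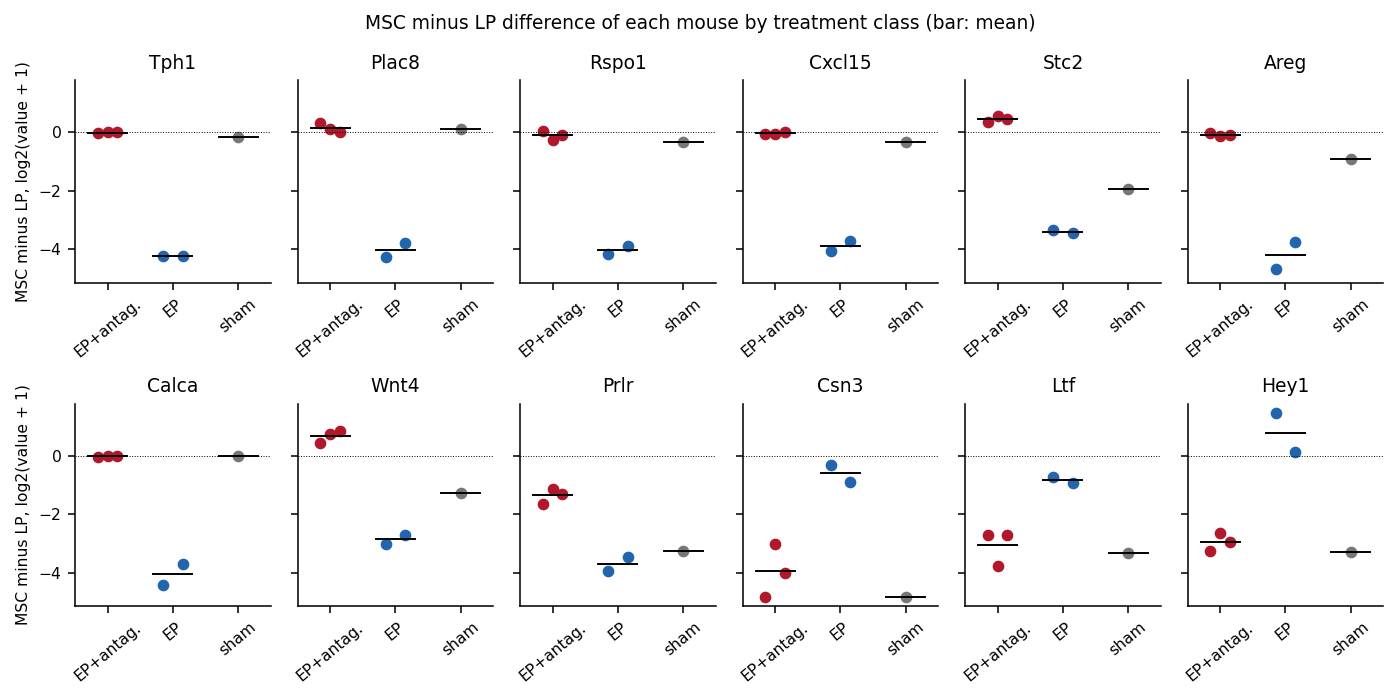
Difference of MSC minus LP on the scale of log2 of value plus 1 for 12 genes, a point for each mouse, with EP plus antagonist (3 mice) left of EP (2 mice) and sham (1 mouse), and a bar at the mean. For Tph1, Plac8, Rspo1, Cxcl15, Areg and Calca the antagonist pairs lie near 0 and the EP pairs below -3.5, while for Csn3, Ltf and Hey1 the EP pairs lie highest.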

How the data were processed

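RNA of sorted MSC and LP cells was amplified with SMART-Seq v4, made into libraries with Nextera XT and sequenced as 75-base paired reads, per the labels' protocols. STAR, Cufflinks, DESeq2 and mm9 are named in the submitters' processing notes, without versions or roles. The deposited values are on the FPKM scale and not counts, so limma (3.58.1, R 4.3.3) was used where edgeR had been planned for counts. Of 22007 symbols, 27 that read as dates were dropped. The authors' adjustment was inferred from values that are identical between libraries. MSC and LP of these mice share 1868 to 6157 such values in each of 36 pairs of libraries. MSC of these mice share 0 with the other MSC libraries and 0 with those of mature luminal cells, and LP libraries share 0 with the other MSC. LP was not set beside mature luminal libraries in this count. Median-ratio factors (0.636 to 1.360, from 3915 genes at 5 or more in all 12 libraries) were applied to the part of each value above its shared lowest value, a step chosen after seeing the data for genes where 4 of 22 libraries lay within 10% of it. Printed values per library are as deposited, and folds are MSC over LP from the rescaled log2(value + 1). A gene was tested where 3 libraries reached 1 and 3 lay above the lowest value. The script was tested on simulated data. Pairs come from the mouse number in the labels (correlations of paired deviations -0.01 to 0.34). The 6 mice are the replicates, and p-values measure the spread between them. Members, gene lists and tests were chosen with earlier results of these data known. Named genes are the markers, up to 5 members of each list per direction with the largest folds and the same sign in 6 of 6 pairs, up to 3 of the highest members without a call, all members of 5 short lists, and the most changed genes overall (10 per direction) and with antagonist (5). A few genes that this rule names are not reported here. Promoter sequences are RefSeq's, on GRCm38.p6.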

Additional observations from a re-analysis of the deposited data

Results flagged for a closer look

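In the 100 groups of 6 libraries that were checked (the MSC and the LP values of each reported marker gene and each marker sum), 11 had 1 library far from the other 5 by Dixon's ratio of gap to range on the log2 scale. Chance flags about 1 in 20 such groups. MSC of mouse 306 was low for Krt5 at 25.8, for Acta2 at 207, for the smooth muscle sum at 793 and for the luminal sum at 11.7. LP of the same mouse was high for Myh11 at 9.55, for the fibroblast collagen Col3a1 at 25.9, for the pericyte gene Rgs5 at 5.74 and for Adipoq at 3.41. The other flagged values were Elf5 at 3.09 in MSC of mouse 323, the adipocyte gene Plin1 at 0.624 in LP of mouse 324 and skeletal actin Acta1 at 2.38 in LP of mouse 322. MSC of mouse 323 is also the library in which the fewest genes, 8191, lay above their lowest value.

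The difference between fractions itself differed between the pairs with antagonist and those with EP for 196 genes by limma's test of that change. The changes with the smallest p were 4.22 for Tph1, 4.17 for Plac8, 3.92 for Rspo1, 3.86 for Cxcl15 and 3.85 for Stc2 on the log2 scale, antagonist minus EP.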

How the results depend on the processing

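Over the 6 pairs 4686 genes were called, and the fits with 1 mouse left out, over 11449 to 11701 genes, called 3258 to 4318, 1551 to 2134 higher and 1610 to 2276 lower, the fewest lower calls without mouse 324. Without rescaling 1430 were higher and 5538 lower, and the lowest value subtracted before the logarithm gave 1803 and 3700. With genes at a mean of 5 or more 2584 of 6865 were called (1126 and 1458), fewer genes being tested. The pairs of mice 322, 323 and 324 gave 2480 calls (1156 and 1324) and those of mice 305, 306 and 308 gave 2551 (1641 and 910), both subsets added after seeing the data. Among the reported calls that ended in the pairs of mice 305, 306 and 308 were Trp63 (adjusted p 0.0704), Esr1 (0.0533), Csn3 (0.0765), Lgr5 (0.077) and Tspan8 (0.0593). Without the mouse as a block 1953 were higher and 2300 lower, and with treatment as covariate in its place 2040 and 2576, so the unpaired fits moved no count by over 1.5 times. The share of calls that were higher was 46.7%, against 20.5% without rescaling and 32.8% with the lowest value subtracted.

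The change with antagonist was called for 196 genes, for 65 to 443 with 1 mouse left out (65 without mouse 324, 105 without 323, 443 without 322), for 303 without rescaling, for 130 with a pseudocount of 0.1 and for 88 with the RU486 pairs as the antagonist group. The cause of these shifts was not tested.

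Of 177 gene values reported (folds over the pairs and changes with antagonist), 111 kept their direction and their side of the threshold under every alternative. No value changed sign with a call. The depth behind each value is unknown, so no counting error can be given, 6 pairs limit the precision, and small changes of genes near their lowest value were not detectable.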

Other observations

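Genes of innate defence, which the luminal layer secretes into milk, had 2 of 22 tested members higher and 6 lower, with a median log2 fold of -0.28 (2 higher and 11 lower on the deposited scale). Over all genes 18.6% were higher and 21.2% lower. Besides Ltf (log2 fold -2.38, SE 0.42, adjusted p 0.00408), the lipopolysaccharide carriers and receptors Lbp and Cd14 were lower in MSC. Lbp ran from 11.2 to 63.1 in MSC (median 19.4), against 60.5 to 198 in LP (median 107) (log2 fold -1.77, SE 0.29, adjusted p 0.00307). Cd14 ran from 40.1 to 91.8 in MSC (median 52.4), against 91.6 to 316 in LP (median 263) (log2 fold -1.31, SE 0.28, adjusted p 0.00856). Il17re, a receptor of the interleukin 17 family, ran from 4.99 to 7.53 in MSC (median 5.61), against 22.3 to 42.5 in LP (median 39.4) (log2 fold -1.86, SE 0.17, adjusted p 0.000255), while the cytokine gene Il17b of the same family was among the largest increases. Il6 was higher, at 50.5 to 315 in MSC (median 110.4), against 35.1 to 46.6 in LP (median 39.3) (log2 fold 1.72, SE 0.40, adjusted p 0.0125), and did not pass in the pairs of mice 322, 323 and 324 (log2 fold 0.65, adjusted p 0.0686).

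Genes of axon guidance and of the hedgehog and hippo pathways had 16 of 26 tested members higher and 3 lower, with a median of 0.78 (13 higher and 5 lower on the deposited scale). Efnb1, a ligand of Eph receptors, ran from 5.13 to 17.3 in MSC (median 9.35), against 3.83 to 5.88 in LP (median 4.80) (log2 fold 1.28, SE 0.18, adjusted p 0.00143). The guidance ligands Slit3 and Sema3b were higher. Slit3 ran from 1.93 to 7.35 in MSC (median 3.59), against 0.499 to 0.668 in LP (median 0.562) (log2 fold 1.77, SE 0.18, adjusted p 0.000357). Sema3b ran from 2.10 to 15.1 in MSC (median 5.09), against 0.975 to 2.01 in LP (median 1.08) (log2 fold 1.73, SE 0.25, adjusted p 0.00163). The netrin gene Ntn1 was the largest decrease, from 1.62 to 3.47 in MSC (median 2.36), against 6.57 to 25.8 in LP (median 20.9) (log2 fold -1.93, SE 0.29, adjusted p 0.00195), and its relative Ntn4, a basement membrane netrin, was higher (log2 fold 1.60, SE 0.21, adjusted p 0.00105). Fat synthesis genes had 1 of 21 tested members higher and 4 lower, with a median of -0.04 (0 higher and 7 lower on the deposited scale). Neither direction exceeded the shares over all genes, 18.6% higher and 21.2% lower. The desaturase Fads2 ran from 17.3 to 27.2 in MSC (median 23.9), against 73.2 to 115 in LP (median 98.1) (log2 fold -1.55, SE 0.13, adjusted p 0.000142). The lipogenic regulator Srebf1 ran from 11 to 25.9 in MSC (median 15.2), against 34.4 to 73.6 in LP (median 51.4) (log2 fold -1.15, SE 0.14, adjusted p 0.000717). The adipocyte sums were high in MSC of mice 305, 306 and 308, and their part in the fat synthesis values was not tested.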
